A study of Homo sapiens with 8 samples.

Results

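Receptor tyrosine kinases span the cell membrane, bind a growth factor or matrix ligand outside the cell and phosphorylate tyrosines inside it. Adaptor proteins that dock on these tyrosines pass the signal to the RAS and MAP kinase and to the PI3 kinase pathways, while phosphatases, ubiquitin ligases and endocytosis end it. In renal cell carcinoma, drugs in clinical use inhibit MET and AXL, among other receptors. The mRNA of 10 receptor tyrosine kinases was examined in renal carcinoma cells, namely MET, EGFR, FGFR1, AXL, DDR1, EPHA2, IGF1R, INSR, ERBB2 and ERBB3. They were taken by gene symbol from a table of 16782 genes, and each symbol matched 1 gene.

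CAKI1, an established human line of renal carcinoma cells, was starved of serum for 24 h and then stimulated with hLcn-2 at 5 µg/mL for 24 h, or left unstimulated as a control. hLcn-2 is the iron-loaded (holo) form of lipocalin-2, a secreted protein that carries iron bound to a siderophore. There were 4 control samples and 4 hLcn-2 samples, numbered 1 to 4 in both groups, and all came from this single line. The labels do not say whether the samples of a group were separate cultures, so that p-values measure only the spread between these samples.

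The libraries held between 1501563 and 13953090 reads, a 9.29-fold range, so that 3 reads of a gene were worth 0.211 in the deepest library and 1.98 in the shallowest. Values are normalized counts on the scale of CPM, in which the total of each library is adjusted by a factor of the authors, from libraries that read the 3′ end of each transcript. Of 12 renal and epithelial markers, 10 were analysed, and their summed level was 2537 to 3507 in controls against 2827 to 3732 in hLcn-2-treated cells. The sum was mostly VIM (means of 1664 and 1874), CD44 (525 and 524) and CDH2 (416 and 509), which are not particular to epithelium, whereas KRT18 (96.9 and 92.6), KRT8 (29.5 and 32.8), EPCAM (23.2 and 26.4) and CDH1 (29.8 and 36.5) were lower. PAX8, a transcription factor of renal epithelium, had means of 226 and 223. Fibroblast markers (2 of 4 analysed, COL1A1 and PDGFRB) summed to 3.70 to 6.58 in controls and to 2.47 to 5.78 in hLcn-2-treated cells, and the 3 endothelial markers were not analysed here. The part of other cell types in the results was not tested.

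The start regions of 3 receptors are shown first. EPHA2 was taken because it was the single receptor called in any fit. INSR was taken because it was higher in every same-numbered pair, as EPHA2 and ERBB2 also were. MET was taken because it was the most abundant and had the smallest log2 fold change. Each region is the 250 bases before the annotated start of the gene in RefSeq (GRCh38.p14), written in the direction of the gene. Capitals mark matches, on either strand, to GGGCGG (a GC box, which SP1 binds), CATTCC (bound by TEAD factors) and TGACGTCA (a cAMP response element, bound by CREB and ATF factors).
EPHA2: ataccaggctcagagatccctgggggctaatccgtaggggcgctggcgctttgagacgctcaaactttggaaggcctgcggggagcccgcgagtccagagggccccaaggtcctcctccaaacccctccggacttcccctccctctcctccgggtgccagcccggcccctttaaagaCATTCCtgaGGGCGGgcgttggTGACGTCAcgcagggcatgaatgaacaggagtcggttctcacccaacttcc
INSR: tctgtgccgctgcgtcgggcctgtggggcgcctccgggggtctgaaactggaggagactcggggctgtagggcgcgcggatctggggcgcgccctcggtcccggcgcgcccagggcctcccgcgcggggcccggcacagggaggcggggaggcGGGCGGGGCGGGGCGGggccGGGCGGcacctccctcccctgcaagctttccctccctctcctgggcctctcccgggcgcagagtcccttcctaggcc
MET: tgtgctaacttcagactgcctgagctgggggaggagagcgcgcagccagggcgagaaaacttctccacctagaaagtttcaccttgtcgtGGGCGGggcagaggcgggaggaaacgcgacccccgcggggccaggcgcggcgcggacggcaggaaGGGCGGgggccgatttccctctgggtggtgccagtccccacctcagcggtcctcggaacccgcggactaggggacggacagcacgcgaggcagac
The EPHA2 region lies at chr1:16156070-16156319 on the minus strand and has a GC content of 63.2%. It held TGACGTCA 51 bases, GGGCGG 64 bases and CATTCC 73 bases before the start. The INSR region, chr19:7294415-7294664 on the minus strand, was richer in GC (78.4%) and held GGGCGG 4 times, at 97, 92, 87 and 77 bases, of which the first 3 overlap by 1 base each. The MET region, chr7:116671946-116672195 on the plus strand, had a GC content of 68.4% and held GGGCGG at 160 and 95 bases. The EGFR region was searched as well and is not shown. It held GGGCGG at 204 and 36 bases. Of 35116 RefSeq start regions of the same length, 42.6% held GGGCGG, 11.9% CATTCC and 1.65% TGACGTCA. TGACGTCA was added to the search after the EPHA2 sequence had been read. No match in the 3 regions was found for CCAAT (present in 32.0% of all regions), TATAAA (10.7%), TGANTCA (an AP-1 site, 6.57%), TGATGNAA (an ATF4 and C/EBP composite site, 3.14%), TGACNNNGC (the core of an antioxidant response element, 10.9%) or ACGTG (the core of a hypoxia response element, 18.5%). These matches describe letters and no binding was measured.

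In unstimulated CAKI1 cells MET mRNA was far above that of the other receptors. MET alone made up 46.3% of the summed level of the 10 receptors in controls against 44.6% in hLcn-2-treated cells, and MET, EGFR and FGFR1 together 85.2% and 84.5%. The sum was 2073 ± 207 (SD, n = 4) in controls against 2109 ± 236 (n = 4) in hLcn-2-treated cells, or 0.176% to 0.235% of a library. The order of mean levels was the same in both groups, from MET, EGFR, FGFR1, AXL, DDR1, EPHA2, IGF1R, INSR and ERBB2 down to ERBB3. Over the 4 controls the ranges of MET and EGFR did not overlap (2.11-fold between control means), nor did those of FGFR1 and AXL (2.74-fold), DDR1 and EPHA2 (3.52-fold), IGF1R and INSR (2.71-fold) or INSR and ERBB2 (2.75-fold). The other neighbours were not separated by their spread, and over all 8 samples the ranges of DDR1 and EPHA2 and of IGF1R and INSR met as well. EGFR exceeded FGFR1 in 7 of 8 samples, AXL exceeded DDR1 in 5, EPHA2 exceeded IGF1R in 4 and ERBB2 exceeded ERBB3 in 7. A 3′ library gives about 1 fragment per transcript, so that levels were not divided by length. Divided by transcript length, 6 of 10 receptors kept their rank, while FGFR1 (62.8 per kb) passed EGFR (45.8 per kb) and DDR1 (27.8 per kb) passed AXL (27.7 per kb).

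**Figure D1:**
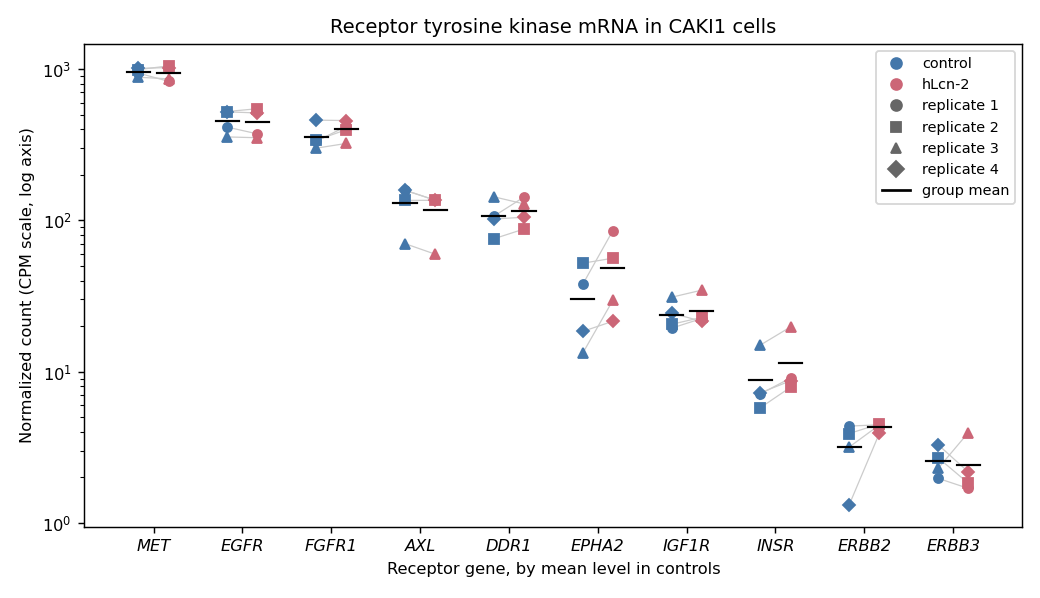
Normalized counts (CPM scale, log axis) of the 10 receptors in 4 control and 4 hLcn-2 samples, with a point for each sample, its shape giving the replicate number, thin lines joining same-numbered samples and black bars at the group means. MET lies highest at 829.3 to 1048.5 and ERBB3 lowest at means of 2.56 and 2.41, and for every receptor the points of both groups overlap.

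MET, the receptor of hepatocyte growth factor, was the most abundant receptor tyrosine kinase and the 87th most abundant of all genes in controls. It is encoded at chr7:116672196-116798377 on the plus strand with 21 exons (GENCODE 44, GRCh38, as for all positions below). Its normalized count was 940.1, 992.0, 882.7 and 1008.8 in controls 1 to 4 and 829.3, 1048.5, 861.5 and 1023.5 in hLcn-2 samples 1 to 4. The highest and the lowest sample were both hLcn-2-treated, and the control values lay between them. With means of 956 ± 56.9 and 941 ± 111 (SD, n = 4 each), the log2 fold change was -0.03 (SE 0.13, 95% interval -0.31 to 0.26). With the replicate number as a block, which takes out differences that same-numbered samples share, the interval narrowed to 0.879-fold to 1.09-fold.

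EGFR, which binds epidermal growth factor, amphiregulin and TGF-alpha, ranked 271st of all genes. It lies at chr7:55019017-55211628 on the plus strand with 28 exons. Normalized counts were 413.1, 524.0, 355.9 and 521.5 in controls and 372.7, 546.7, 351.5 and 512.3 in hLcn-2-treated cells. In both groups numbers 2 and 4 were high and numbers 1 and 3 were low, and the difference within pairs ranged from -0.15 to 0.06 on the log2 scale. The log2 fold change was -0.03 (SE 0.18, 95% interval -0.43 to 0.37, and -0.19 to 0.12 with the replicate block).

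ERBB2 and ERBB3 are partners of EGFR, ERBB2 without a ligand of its own and ERBB3 as a neuregulin receptor with little kinase activity. Both were low, at under 5 normalized counts in each sample, and ERBB2 rested on 2 to 62 reads. ERBB2 (chr17:39687914-39730426, plus strand) was at 4.37, 3.90, 3.17 and 1.32 in controls and at 4.45, 4.51, 4.44 and 3.91 in hLcn-2-treated cells. The hLcn-2 samples lay close together near the top of the control range, and the low value of control 4 rested on 2 reads in the shallowest library, with a Poisson interval of 0.159 to 4.76 that covers counting error only. ERBB2 was higher in 4 of 4 pairs, at a log2 fold change of 0.41 (SE 0.28) and p = 0.0571 in a two-sided exact permutation test over samples, whose smallest possible p is 0.0286. Without control 4 the log2 fold change was 0.15, and with the replicate block without pair 4 it was 0.19. The last exon of ERBB2 overlaps 163 bases of MIEN1 on the other strand, and the sources used here do not say whether reads were counted by strand. ERBB3 (chr12:56076799-56103505, plus strand) was at 1.97, 2.70, 2.29 and 3.29 in controls and at 1.69, 1.83, 3.95 and 2.17 in hLcn-2-treated cells. These values rested on 5 to 36 reads, the groups overlapped throughout, and the log2 fold change was -0.09 (SE 0.27).

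FGFR1, a receptor of fibroblast growth factors that signals through the docking protein FRS2, had 18 exons in its annotated transcript. Its normalized counts were 332.9, 338.1, 299.8 and 459.6 in controls and 418.3, 397.4, 322.4 and 456.6 in hLcn-2-treated cells. Sample 4 was highest and sample 3 lowest in both groups, and the difference within pairs ranged from -0.01 to 0.33 on the log2 scale. The means were 358 ± 70.1 and 399 ± 56.5 (SD, n = 4 each), with a log2 fold change of 0.16 (SE 0.16) and, with the replicate block, an adjusted p of 0.424 (limma).

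AXL, the receptor of GAS6, showed its main contrast between replicate numbers. It lies at chr19:41219223-41261766 on the plus strand with 20 exons. Normalized counts were 158.3, 135.5, 70.2 and 158.0 in controls and 135.8, 135.7, 59.7 and 135.9 in hLcn-2-treated cells. Sample 3 was far below the others in both groups, whereas the other 3 hLcn-2 samples were nearly equal. Within pairs the log2 difference was -0.22, 0.0021, -0.23 and -0.22, giving a log2 fold change of -0.17 (SE 0.31) and an adjusted p of 0.455 with the replicate block (limma). DDR1, a receptor of collagen encoded at chr6:30876421-30900156 on the plus strand, was at 106.5, 75.5, 143.1 and 102.1 in controls and at 142.6, 87.6, 128.4 and 104.8 in hLcn-2-treated cells. Sample 2 was lowest in both groups, while pair 3 differed in the opposite direction to the other pairs, and the log2 fold change was 0.13 (SE 0.20).

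EPHA2, a receptor of A-type ephrins that takes part in contacts between cells, had the largest difference of the 10 receptors. It is encoded at chr1:16124337-16156069 on the minus strand with 17 exons, directly downstream of the region shown above. Its normalized counts were 37.7, 52.1, 13.2 and 18.4 in controls 1 to 4 and 85.6, 56.2, 29.6 and 21.5 in hLcn-2 samples 1 to 4. Samples 1 and 2 were above samples 3 and 4 in both groups, the ranges overlapped, and each hLcn-2 sample exceeded the control of its number. The differences were of 2 sizes, 2.27-fold and 2.24-fold in pairs 1 and 3 but 1.08-fold and 1.17-fold in pairs 2 and 4. From means of 30.3 ± 17.9 and 48.2 ± 29.0 (SD, n = 4 each), the log2 fold change was 0.65 with an SE of 0.46 and a 95% interval of -0.35 to 1.65, and 1.65% of the genes tested had one as large in either direction. The exact permutation test over samples gave p = 0.371.

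Whether EPHA2 passed the threshold depended on the model. Without a block it did not pass in limma, edgeR or DESeq2 (adjusted p of 0.9996 or higher in each). With the replicate block its adjusted p was 0.142 in limma (95% interval 0.28 to 1.02), 0.0349 in edgeR and 0.0342 in DESeq2. In edgeR with the block, the adjusted p was 0.451 without pair 1 and 0.134 without pair 3, against 0.0126 without pair 2 and 0.0495 without pair 4, so that the call rested on the 2 pairs with the large difference. Its ligand EFNA1 (ephrin-A1) was at 53.8, 38.4, 147.9 and 90.9 in controls and at 97.2, 66.4, 179.7 and 82.0 in hLcn-2-treated cells. EFNA1 was higher in 3 of 4 pairs and had a log2 fold change of 0.44 (SE 0.39) and an adjusted p of 0.0513 in edgeR with the replicate block.

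**Figure D2:**
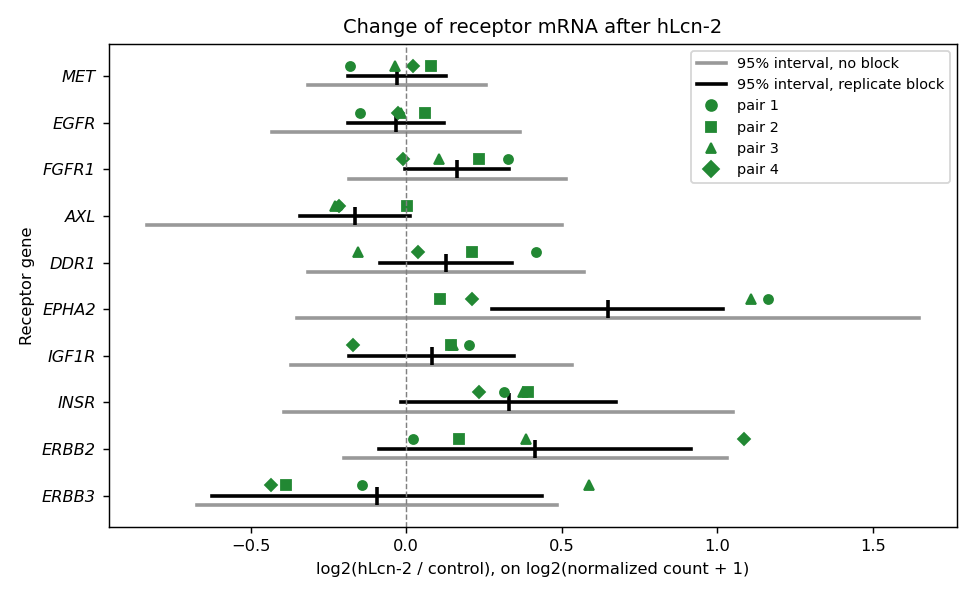
Log2 difference of hLcn-2 against control, on log2(normalized count + 1), for each receptor, with green symbols for the 4 same-numbered pairs, a vertical tick at the mean difference and bars for the 95% intervals from limma without (grey) and with (black) the replicate block. The black interval of EPHA2 (0.28 to 1.02) does not include 0, its grey interval (-0.35 to 1.65) does, and all 4 pairs of EPHA2, INSR and ERBB2 lie above 0.

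INSR and IGF1R, the receptors of insulin and of insulin-like growth factors, are close relatives that can form hybrid receptors. INSR (chr19:7112255-7294414, minus strand, 22 exons) was at 7.11, 5.78, 14.98 and 7.24 in controls and at 9.09, 7.89, 19.7 and 8.70 in hLcn-2-treated cells. Sample 3 stood above the other samples in both groups, and all pairs differed by a similar amount, 1.28-fold, 1.37-fold, 1.32-fold and 1.201-fold. These values rested on 11 to 102 reads, so that counting error limits the comparison of pairs. The value of control 4 came from 11 reads, with a Poisson interval of 3.62 to 13.0 that covers counting error only. The log2 fold change of 0.33 (SE 0.33) did not pass the threshold, with adjusted p-values with the replicate block of 0.442 in limma and 0.290 in edgeR, and ranged from 0.049 without hLcn-2 3 to 0.59 without control 3. IGF1R (chr15:98648539-98964530, plus strand, 21 exons) was at 19.4, 20.6, 31.0 and 24.4 in controls and at 22.4, 22.8, 34.6 and 21.5 in hLcn-2-treated cells. Sample 3 was again highest in both groups, and the log2 fold change was 0.08 (SE 0.21), higher in 3 of 4 pairs.

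Counted over the 10 receptors, 6 had a positive and 4 a negative log2 fold change, with a median of 0.10 beside 0.0008 for all genes tested. Limma without a block called 0 of the 10 receptors, as it called 0% of the 15593 genes tested, and 0 of the 10 had an unadjusted p under 0.05, as 355 genes did (2.28%). edgeR and DESeq2 without a block also called 0 genes. With the replicate block, the number of receptors called was 0 in limma, where 0.282% of genes were called, and 1, EPHA2, in edgeR and in DESeq2, where 1.49% and 1.11% were called. DESeq2 gave no adjusted p for ERBB2 and ERBB3 in that fit. With the block, 1 of the 10 receptors (EPHA2) had an unadjusted p under 0.05 in limma, no larger a share than the 12.2% of all genes. Receptors higher in 4 of 4 pairs numbered 3 (EPHA2, INSR and ERBB2), against 9.93% of all genes, and receptors lower in 4 of 4 pairs numbered 0, against 10.9%. No receptor had groups that did not overlap, against 1.88% of all genes. For all 10 the difference of means was smaller than the SD of the controls, which includes the spread between replicate numbers. For EPHA2 the margin was minimal (means of 30.3 and 48.2, control SD 17.9).

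Ratios within a library do not depend on its scaling and were used to compare receptors that pair or share ligands. The log2 differences and the tests of the ratios used log2(normalized count + 1), which depends on the scaling for low genes. The ratio of INSR to IGF1R was 0.357 ± 0.0918 in controls against 0.431 ± 0.0973 in hLcn-2-treated cells (SD, n = 4 each), higher in 4 of 4 pairs, and a two-sided exact permutation test gave p = 0.286 (0.571 adjusted over 5 ratios). ERBB2 was 0.736% of EGFR in controls against 1.01% in hLcn-2-treated cells, also higher in 4 of 4 pairs (exact permutation p = 0.343, 0.571 adjusted), but the log2 difference of 0.45 was 0.11 without control 4. AXL to MET was 0.135 and 0.124, lower in 4 of 4 pairs (exact permutation p = 0.571, 0.714 adjusted). The ratios that involve ERBB3 rested on few reads, with exact permutation p-values of 0.886 against EGFR and 0.314 against ERBB2, where the log2 difference of -0.51 was -0.15 without control 4. With 0.1 or 5 added in place of 1, the log2 difference was 0.58 or 0.24 for ERBB2 to EGFR. For ERBB3 to ERBB2 it was -0.69 or -0.24. Signs in 4 pairs alone cannot reach a p of 0.05 in an exact test.

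The replicate number was the larger source of variation for several receptors. Number 3 had the lowest value in both groups for EGFR, FGFR1 and AXL and the highest in both groups for IGF1R and INSR. Against the mean of the other numbers, it was at 0.457-fold for AXL and 0.514-fold for EPHA2, at 2.13-fold for INSR, 1.48-fold for IGF1R and 1.34-fold for DDR1, and at 0.898-fold for MET. The average of a same-numbered pair spanned 1.47 on the log2 scale for EPHA2, 1.23 for INSR and 1.17 for AXL, but 0.23 for MET. The depth and several markers of the renal and epithelial list also varied with the number. CDH1 (E-cadherin, chosen for mention after its values were seen) was at 9.26 to 16.8 in numbers 1 and 2, where EPHA2 was high, and at 43.9 to 63.1 in numbers 3 and 4, where EPHA2 was low. The other 9 markers of the renal and epithelial list, such as KRT8 (25.4 to 43.9 over all samples), EPCAM (19.5 to 27.8) and PAX8 (200.9 to 245.3), did not divide by number in this way. Some of them followed the number otherwise. VIM was at 1752 to 2181 in numbers 1 and 2 and at 1302 to 1773 in numbers 3 and 4, ranges that overlap slightly. CD44 was at 566 to 645 in numbers 1 and 2 and at 329 to 569 in numbers 3 and 4, which also overlap slightly. CDH6 was highest in control 3 and hLcn-2 3 (172.6 and 148.6) and lowest in control 2 and hLcn-2 2 (47.1 and 33.4). KRT18 was highest in control 4 and hLcn-2 4 (128.4 and 132.6) and lowest in control 3 and hLcn-2 3 (68.2 and 62.7). Libraries 1 and 2 held 6972124 to 13953090 reads and libraries 3 and 4 held 1501563 to 5799151. The part of these differences in the levels of the receptors was not tested.

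**Figure D3:**
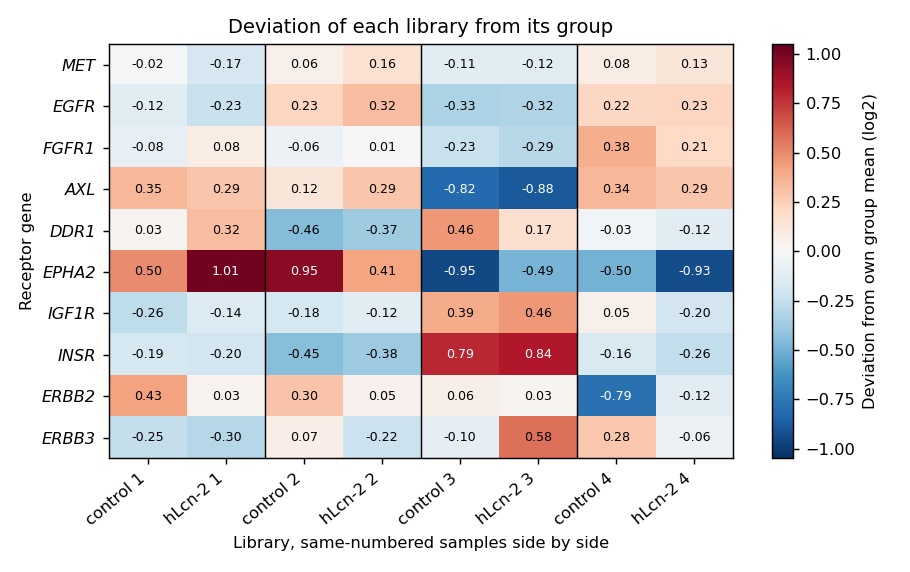
Deviation of log2(normalized count + 1) from the mean of the own group, for the 10 receptors (rows) in 8 libraries (columns) with same-numbered samples side by side, red for above and blue for below. AXL is at -0.82 and -0.88 and INSR at 0.79 and 0.84 in control 3 and hLcn-2 3, and EPHA2 is above its group mean in both libraries of numbers 1 and 2 and below it in numbers 3 and 4.

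After removal of the group means, several receptors varied together over the 8 samples. Pearson's r was 0.95 for MET and EGFR and 0.94 for IGF1R and INSR, while AXL went opposite to INSR (-0.95) and IGF1R (-0.93), and EGFR opposite to DDR1 (-0.88). These were the extremes of 28 pairs among the 8 receptors with a mean of at least 10 over all samples, are given as a description, and rest on samples that share replicate numbers and differ in depth. Among 9006 genes with a mean of at least 10, those most like MET were NRBP1 (r = 0.99), SPATS2 (0.98) and RIF1 (0.98). For EGFR they were TOMM40 (0.99), SLC19A1 (0.98) and HBEGF (0.98), and for FGFR1 BTF3 (0.996), SLFN12 (0.99) and SLC39A6 (0.98). These too are the extremes of a search, here over 9006 genes, and rest on the same 8 samples with shared replicate numbers. They are given as a description, and a relation of these genes to the receptors was not tested.

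The other receptor tyrosine kinases of CAKI1 cells were less abundant than the leading 5. Of 58 human receptor tyrosine kinases listed, 32 were analysed here, and 16 had a mean of at least 10 in controls. MET, EGFR, FGFR1, AXL and DDR1 were followed by the ephrin receptors EPHB1 (a mean of 76.98 in controls against 69.96 after hLcn-2), EPHB4 (53.1 and 48.2) and EPHA7 (48.09 and 44.03) and by RYK, a WNT receptor (46.1 and 50.9). EPHB2 (27.9 and 35.3), FGFR4 (24.95 and 19.89), ROR1 (19.7 and 15.4), TYRO3, a relative of AXL (15.7 and 12.6), and LMTK2 (13.8 and 13.0) were near EPHA2 and IGF1R. Of the 22 outside the 10 receptors, 7 had a positive and 15 a negative log2 fold change, with a median of -0.10, and 0 were called in limma, edgeR or DESeq2, with or without the block. At an unadjusted p under 0.05 in limma there was 1 of them without the block (LMTK3), beside 2.28% of all genes tested, and 3 with it (FGFR4, ROR1 and LMTK3), beside 12.2% of all genes.

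**Figure D4:**
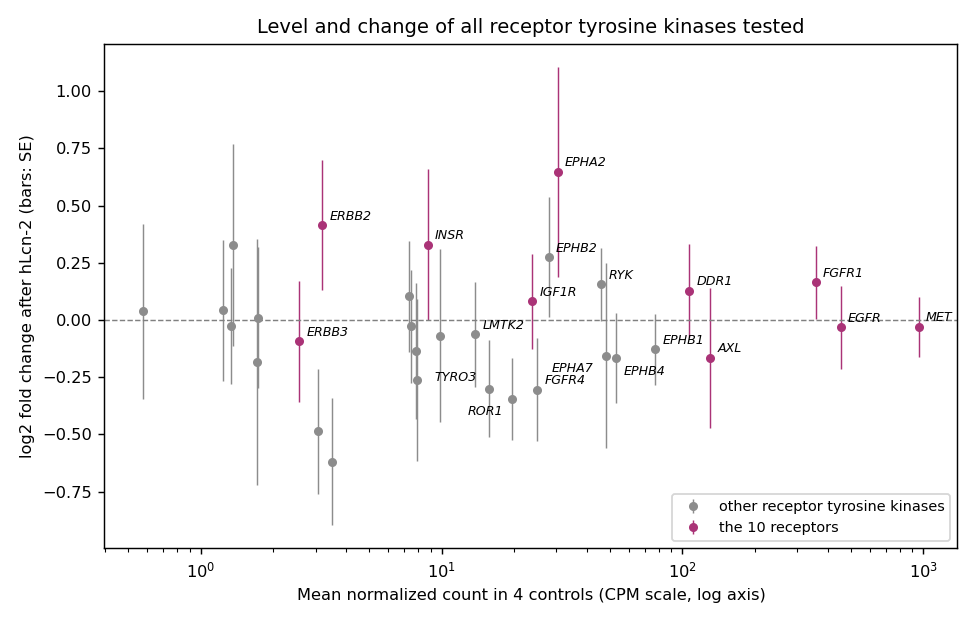
Mean normalized count in 4 controls (CPM scale, log axis) against the log2 fold change after hLcn-2 with its SE (limma without block) for the 32 receptor tyrosine kinases tested, the 10 receptors in purple and the others in grey. MET, EGFR, FGFR1, AXL and DDR1 are the 5 most abundant, and EPHA2 has the largest log2 fold change (0.65).

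Among ligands of these receptors, the EGFR ligand AREG was called with the replicate block. Of 28 ligands listed, 21 were analysed and 19 passed the filter, of which 9 had a positive and 10 a negative log2 fold change (median -0.02). AREG (amphiregulin) was at 34.9, 46.2, 10.6 and 23.7 in controls and at 20.6, 33.5, 6.42 and 13.9 in hLcn-2-treated cells. It was lower in 4 of 4 pairs although the groups overlapped, with a log2 fold change of -0.64 (SE 0.48). With the replicate block, AREG was the single ligand of the 19 called in edgeR (adjusted p = 0.0152) and DESeq2 (0.0236), where 1.49% and 1.11% of all genes were called. In limma with the block it was not called (0.0569). EREG (epiregulin), a lower-abundance EGFR ligand, was also lower in 4 of 4 pairs (11.4 ± 10.8 and 8.49 ± 10.8, adjusted p = 0.238 in edgeR with the block). Its pairs 1 to 4 were at 0.463-fold, 0.950-fold, 0.934-fold and 0.198-fold, so that pairs 2 and 3 hardly differed. Pair 3 rested on 15 control and 5 hLcn-2 reads, and pair 4 on 5 and 3. The most abundant ligands were TGFA (151 ± 47.5 and 173 ± 30.4) and FGF2 (143 ± 27.5 and 158 ± 28.1, higher in 4 of 4 pairs). With the block, 5 of the 19 ligands had an unadjusted p under 0.05 in limma, a larger share than the 12.2% of all genes. AREG and EREG were lower, and TGFA, EFNA1 and the collagen gene COL4A1 were higher. HGF, the ligand of MET, named here after its values were seen, was at 0 to 0.986 over the 8 samples and did not pass the filter.

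Of the proteases that release ligands or shed receptors and their inhibitors, 9 of 13 were tested and 5 had a positive log2 fold change (median 0.04). ADAM9, a membrane metalloprotease able to shed HBEGF, was at 153.5, 197.6, 198.1 and 138.9 in controls and at 267.7, 227.5, 237.5 and 182.0 in hLcn-2-treated cells. Every pair was higher, and the log2 fold change was 0.41 (SE 0.16). With the replicate block, ADAM9 was the single gene of the 9 called in edgeR (adjusted p = 0.0304) and DESeq2 (0.0279), where 1.49% and 1.11% of all genes were called. In limma with the block it was not called (0.102). ADAM10 (151 ± 13.1 and 155 ± 15.9) and ADAM17 (14.8 ± 2.19 and 13.2 ± 3.20), the main sheddases of EGFR ligands, and RHBDF2, which helps ADAM17 mature (80.3 and 83.4), were each higher in 2 of 4 pairs, as was the protease inhibitor SPINT2 (55.8 and 52.7).

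None of the adaptors, negative regulators or trafficking genes was called in limma, edgeR or DESeq2, with or without the block, although single genes differed within pairs. Of 25 adaptors and effectors tested, 15 had a positive log2 fold change (median 0.02). GRB2 (212 and 222), IRS2 (192 and 183) and PTPN11 (136 and 142) were the most abundant, while SHC1 (17.5 ± 4.14 and 25.1 ± 7.17, log2 fold change 0.49) and VAV2 (27.8 ± 2.31 and 35.6 ± 5.02, 0.34) had the largest positive values and PIK3R2 (1.27 and 0.625, -0.35) the largest negative one. With the block, 2 of the 25 (SHC1 and VAV2) had an unadjusted p under 0.05 in limma, no larger a share than the 12.2% of all genes. Of 23 negative regulators, 15 had a positive value (median 0.04). ERRFI1, a feedback inhibitor of EGFR, was at 228.9, 261.6, 145.4 and 223.2 in controls and at 178.3, 233.4, 123.9 and 138.9 in hLcn-2-treated cells, lower in 4 of 4 pairs (log2 fold change -0.36, adjusted p = 0.0720 in edgeR with the block). PTPRJ, a receptor phosphatase, was higher in 4 of 4 pairs (25.9 ± 9.23 and 37.4 ± 8.09, log2 fold change 0.57, adjusted p = 0.0534 in edgeR with the block). PTPN1 (324 and 328) and the ubiquitin ligase CBL (134 and 123) were abundant, and LRIG1 (1.40 and 1.91) and LRIG3 (5.951 and 7.998) low. With the block, 3 of the 23 (ERRFI1, PTPRJ and GRB14) had an unadjusted p under 0.05 in limma, a share near the 12.2% of all genes.

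The 15 trafficking and chaperone genes all passed the filter, 6 with a positive and 9 with a negative log2 fold change (median -0.04). HSP90AA1, a chaperone that stabilizes ERBB2 among many kinases, was at 3071 ± 996 and 2585 ± 899, lower in 4 of 4 pairs, and its paralog HSP90AB1 at 2579 ± 470 and 2707 ± 522, higher in 4 of 4 pairs. Clathrin (CLTC, 962 and 983), STAM2 (87.9 and 98.1) and the adaptor subunit AP2A1 (14.12 and 10.98), which act in the uptake and sorting of receptors, differed by at most 0.32 on the log2 scale. With the block, 1 of the 15, HSP90AA1, had an unadjusted p under 0.05 in limma (adjusted p = 0.240), a smaller share than the 12.2% of all genes.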

How the data were processed

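The RNA of 4 control and 4 hLcn-2 samples of CAKI1 cells was sequenced with a UMI-tagged 3′ mRNA kit. According to their methods, the authors moved the UMI into the read name (umi2index), mapped reads to GRCh38 with STAR, merged reads of 1 molecule (collapse_UMI_bam), counted genes with HTSeq, dropped genes without counts and used edgeR in R. Versions of STAR and HTSeq and the strand setting of the counting are not given in the sources used here. The table they deposited holds normalized counts, a signal that the authors scaled to CPM, 1 value per gene and sample. All 134256 values (100%) were whole multiples of the worth of 1 read, within 0.05 reads, and count tools were run on these recovered reads. One cell with a decimal comma was read as a decimal point.

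A gene was tested where 2 or more samples reached 1 CPM (15593 genes). The test was limma 3.58.1 in R 4.3.3, with an intensity trend, on log2(normalized count + 1), and with Benjamini-Hochberg adjustment over all of them, at a threshold of 0.05 for the adjusted p. Fold changes on this scale understate those of low genes. edgeR 4.0.16 (quasi-likelihood), DESeq2 1.42.0, the replicate number as a block, other pseudocounts, filters and scalings, and leaving out samples were alternatives. Replicate numbers were taken to pair the samples because deviations of same-numbered samples from their group means correlated across genes (0.48, 0.59, 0.61 and 0.31 for numbers 1 to 4). The limma and edgeR models, with and without the block, were checked on simulated reads with known changes. DESeq2 was not checked in this way. Intervals of low counts are exact Poisson intervals for counting error only.

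The receptors and the lists of related genes were chosen with earlier results of these data known. Named are the 10 receptors, other receptor tyrosine kinases with a control mean of at least 10, the 3 most abundant and the 3 most changed genes of each other list, genes behind counts of 5 or fewer, and the 3 genes most like each of MET, EGFR and FGFR1. Gene positions are from GENCODE 44 and start regions from RefSeq. The blood marker list is not reported here.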

Additional observations from a re-analysis of the deposited data

Results flagged for a closer look

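In 5 of 20 groups of 4 values (10 receptors in 2 groups), the highest or lowest sample stood apart from the other 3 by more than the 95% limit of Dixon's test, where chance gives about 1 in 20 groups. In hLcn-2 sample 3, AXL was low at 59.7 normalized counts and IGF1R was high at 34.6. INSR was high in control 3, at 14.98, and in hLcn-2 3, at 19.7. ERBB2 was low in hLcn-2 4, at 3.91, a value of 18 reads. The first 4 of these 5 values are from replicate number 3, and the cause was not tested.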

How the results depend on the processing

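Without a block, 0 genes and 0 receptors were called under every alternative, sample left out included. The replicate block gave 44 genes in limma, 233 in edgeR and 173 in DESeq2, and 1 receptor (EPHA2) in edgeR and DESeq2. Leaving out pair 1, 2, 3 or 4 gave 14, 3, 0 and 58 genes in limma and 66, 56, 125 and 221 in edgeR, the latter chosen after seeing the data. EPHA2 remained called in edgeR without pair 2 (log2 fold change 1.01) or pair 4 (0.76), but not without pair 1 or 3. Its value with all pairs was 0.70 in edgeR and 0.69 in DESeq2. EPHA2 (0.31 to 1.01 over all settings), INSR (0.049 to 0.59), ERBB2 (0.15 to 0.56) and FGFR1 (0.086 to 0.29) kept their sign, but 1 sample left out moved each by over 1.5 times. The lowest values were without hLcn-2 1 for EPHA2, hLcn-2 3 for INSR, control 4 for ERBB2 and control 3 for FGFR1. With 1 sample left out, the sign of small differences turned, for MET (-0.083 to 0.029), EGFR (-0.14 to 0.073), AXL (-0.44 to 0.13), ERBB3 (-0.29 to 0.0052), IGF1R (-0.071 to 0.21), DDR1 (-0.025 to 0.28), and the log2 ratios of ERBB3 to EGFR (-0.36 to 0.12) and AXL to MET (-0.37 to 0.12). So it did in the replicate block without pair 1 for MET (0.022 in limma, 0.024 in edgeR) and EGFR (0.0059 and 0.0090), and for ERBB3 without pair 2 (0.0035 and 0.00087) or pair 4 (0.020 in limma). The order by level kept 6 of 10 ranks per kilobase. It kept 8 of 10 without control 2, where IGF1R passed EPHA2, and all 10 without control 1, 3 or 4. Other scalings moved the median of all genes by at most 0.03. ERBB2 and ERBB3 had no value under the filter of a mean of at least 10. Depth limits both, at 2 to 62 reads per library, and control 4 most of all.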
